A study of Mus musculus with 1392 samples.

Results

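Dnmt3a, Tet2 and Asxl1 are the genes most often mutated in human clonal haematopoiesis, the age-related growth of single blood stem cell clones, and the chromatin accessibility around them was compared here between old and young mouse stem cells. The members were all peaks of the deposited table that overlapped fixed windows of the mm9 build around the genes. The windows run from 3.79 to 3.93 Mb of chromosome 12 for Dnmt3a, from 133.1 to 133.24 Mb of chromosome 3 for Tet2 and from 153.155 to 153.245 Mb of chromosome 2 for Asxl1. The members numbered 31 of 115295 peaks, with 19 in the Dnmt3a window, 6 in the Tet2 window and 6 in the Asxl1 window. The study measured open chromatin by single-cell ATAC-seq on plates, where a transposase tags accessible DNA with sequencing adapters. The groups were haematopoietic stem cells from the bone marrow of old C57BL/6 mice, with 1060 cells, and of young C57BL/6 mice, with 332 cells. The ages of the mice in months are not given in the labels. Both groups were sorted by the same gate, LSKCD150+CD48-CD34-Vwf+. By that gate every cell was negative for lineage markers, CD48 and CD34 and positive for Sca-1, Kit and CD150. The gate also marks the cells as Vwf+, after the gene of the platelet protein von Willebrand factor, and does not say how Vwf was read. The series asks how the makeup of this pool of stem cells shifts with age. Each deposited sample is 1 cell, and the titles number the cells into the sets old 1, old 2, old 3, young 1 and young 2. What a set stands for (an animal, several pooled animals, a plate) is not in the labels. A set was used as the replicate, and the p-values therefore speak only of the spread among these sets, which may be technical. No set mixes the ages, so the effect of age and that of how a set was prepared cannot be told apart. The markers of the gate were not looked up, because peaks in mm9 could not be tied to genes with the annotation used here.

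Dnmt3a encodes a de novo DNA methyltransferase, which adds methyl groups to cytosine in CG dinucleotides. A start inside the gene gives the shorter isoform Dnmt3a2. Tet2 encodes a dioxygenase that oxidises 5-methylcytosine and so opens a way to its removal. Asxl1 encodes a partner of the deubiquitinase Bap1, which takes ubiquitin off histone H2A. In mice, loss of Dnmt3a or of Tet2 in stem cells raises their self-renewal, and mutations of all 3 genes accumulate in the blood of ageing people. Accessibility at a locus says nothing of such mutations.

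The bases before the annotated starts are shown because Dnmt3a and Tet2 act on CG methylation and the 3 genes differ widely in the CG content of their own promoters. The sequences are from RefSeq (GRCm38.p6), run 5′ to 3′ on the strand of the gene and end at the last base before the start, with each CG in capitals. For Dnmt3a the outermost of the starts in the table, at chr12:3806730-3806979 on the + strand, and a start inside the gene, at chr12:3891494-3891743 on the + strand, are given. The Tet2 sequence is chr3:133544391-133544640 on the - strand, and the Asxl1 sequence is chr2:153345580-153345829 on the + strand.
Dnmt3a outermost start: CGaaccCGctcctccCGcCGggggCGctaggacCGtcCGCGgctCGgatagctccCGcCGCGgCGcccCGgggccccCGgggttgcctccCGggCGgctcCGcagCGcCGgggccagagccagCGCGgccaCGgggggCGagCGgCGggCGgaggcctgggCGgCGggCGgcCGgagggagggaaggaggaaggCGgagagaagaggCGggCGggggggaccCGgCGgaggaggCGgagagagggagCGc
Dnmt3a internal start: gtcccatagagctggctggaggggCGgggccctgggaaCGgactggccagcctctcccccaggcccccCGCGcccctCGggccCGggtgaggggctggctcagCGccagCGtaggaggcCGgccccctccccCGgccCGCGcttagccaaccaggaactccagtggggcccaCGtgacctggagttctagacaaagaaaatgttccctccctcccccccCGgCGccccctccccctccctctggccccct
Tet2: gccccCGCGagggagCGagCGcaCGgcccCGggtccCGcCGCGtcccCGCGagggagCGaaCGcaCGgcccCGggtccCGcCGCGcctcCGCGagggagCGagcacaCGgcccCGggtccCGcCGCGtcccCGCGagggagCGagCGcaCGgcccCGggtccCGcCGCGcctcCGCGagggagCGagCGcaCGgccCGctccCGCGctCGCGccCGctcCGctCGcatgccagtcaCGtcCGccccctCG
Asxl1: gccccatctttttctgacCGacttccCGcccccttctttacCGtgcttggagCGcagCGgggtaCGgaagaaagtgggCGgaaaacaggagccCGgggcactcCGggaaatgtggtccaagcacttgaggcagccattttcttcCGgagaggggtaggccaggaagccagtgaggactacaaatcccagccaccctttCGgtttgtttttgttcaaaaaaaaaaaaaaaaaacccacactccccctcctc

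The Tet2 promoter held 51 CG in 250 bases, more than 99.9% of 32851 mouse promoters of the same length, whose median was 6. The outermost Dnmt3a start had 38 CG, above 98.1% of promoters, while the internal start had 15, above 72.7%. The Asxl1 promoter had 11, above 64.4%, and a GC content of 54.4%, against 83.6% at Tet2, 82.4% at the outermost Dnmt3a start and 73.6% at the internal one. The Tet2 sequence also repeats itself: 77.9% of its bases equalled the base 42 positions further on, the highest self-match over distances of 20 to 80 bases. Only 0.0548% of promoters reached that value, and the median highest self-match was 33.9%. The GC box GGGCGG, counted on both strands, matched 5 times at the outermost Dnmt3a start, 1 time at the internal start, 1 time at Tet2 and 2 times at Asxl1, and 32.7% of promoters held it at least once. The ETS core CCGGAA matched 1 time at Asxl1 and not at the others (12.0% of promoters held it), and the GATA word AGATAA matched none of them (9.99% held it). A match is a description of letters, not a site. The build of these sequences differs from that of the peaks, so none of them can be placed on a peak here. In the same annotation the nearest coding neighbours are Dtnb and Pomc for Dnmt3a, Ppa2 and Cxxc4 for Tet2, and Kif3b and Nol4l for Asxl1, and Dnmt3aos and Gm31623 overlap Dnmt3a.

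Across the whole table, 1844 of 58167 tested peaks were called between old and young sets, 3.17% of them (edgeR quasi-likelihood test on the counts of each set, threshold of 0.05 after Benjamini-Hochberg adjustment). Of these, 808 were higher in old and 1036 lower, and when sets were scaled by their plain totals 1051 were higher and 770 lower. That scaling moved the median log2 fold change of all tested peaks by 0.098. The counts per set ran from 1640887 to 4181770 in the old sets and from 1159957 to 2589894 in the young sets. No pair of cells had identical columns.

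No peak around Dnmt3a, Tet2 or Asxl1 was called between old and young stem cells, in either direction. Of the 31 members, 18 had enough counts to be tested, 12 around Dnmt3a, 2 around Tet2 and 4 around Asxl1. The edgeR test called 0 of the 18, where 3.17% of all tested peaks were called, 1.39% as higher in old and 1.78% as lower. It gave 1 member an unadjusted p under 0.05, where 15.4% of all tested peaks had one. DESeq2 called 0 members, against 0.845% of all peaks it tested, and put 0 of them at an unadjusted p under 0.05, against 6.95% of those peaks. The fitted values nevertheless lay mostly on one side, with 15 of 18 tested members lower in old. That is 83.3% of them, against 50.8% of all tested peaks. Of the 15, chr12:3791342-3792203 (-0.003) and chr12:3839371-3839881 (-0.009) lay next to 0. The median log2 fold change of the 18 was -0.24, against -0.0089 over all tested peaks. In 8 of the 18 every old set lay below every young set, where 16.7% of all tested peaks did so, and in 1 every old set lay above, where 16.4% did. Members of a window are neighbours and share their cells, so these counts are not independent observations.

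Summed over its peaks, each window was compared in a table with 100-kb bins of the rest of the genome, on a scale of CPM, counts scaled to 1000000 counts of the composition-adjusted total of that table. The Dnmt3a window had 363.4, 349.1 and 319.3 CPM in old 1, old 2 and old 3, against 396.7 and 406.9 CPM in young 1 and young 2. The old sets averaged 344 ± 22.5 CPM (SD, n = 3) and the young sets 402 ± 7.18 CPM (SD, n = 2), so every old set lay below both young sets. Such an order held for 17.2% of all bins and windows tested. The log2 fold change was -0.22 with a standard error (SE) of 0.11 and a 95% interval of -0.45 to 0.005 (edgeR adjusted p = 0.278). On the linear scale the interval runs from 0.732 to 1.004 times the young level. With entries above 0 set to 1 in every cell, the log2 fold change was -0.10. In a setting added once the data had been seen, the cell with the most counts at a member peak, from young 2, was left out. The log2 fold change of the window was then -0.19 (edgeR adjusted p = 0.384).

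The Tet2 window had 65.0, 50.6 and 52.9 CPM in old 1, old 2 and old 3, against 78.98 and 73.3 CPM in young 1 and young 2. Here too the old sets lay below both young sets, at 56.2 ± 7.73 CPM (SD, n = 3) against 76.1 ± 4.01 CPM (SD, n = 2). The log2 fold change of -0.41, that is 0.754 times the young level and the largest in size of the 3 windows, came with a standard error of 0.17 and a 95% interval of -0.75 to -0.06. Its unadjusted edgeR p was 0.0225, and 18.9% of all bins and windows had an unadjusted p under 0.05. After adjustment over all 16652 bins and windows tested, of which 5.57% were called, Tet2 did not pass (edgeR adjusted p = 0.172). With each cell thinned to 1 depth the fitted value was -0.63, and it did not pass either (edgeR adjusted p = 0.328).

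The Asxl1 window had 77.8, 78.0 and 70.2 CPM in old 1, old 2 and old 3, against 68.3 and 89.4 CPM in young 1 and young 2. The ages overlapped, because the 3 old sets lay between the young sets. Means were 75.3 ± 4.47 CPM (SD, n = 3) in old and 78.9 ± 14.9 CPM (SD, n = 2) in young sets. The log2 fold change was -0.09 with a standard error of 0.16 and a 95% interval of -0.42 to 0.23 (edgeR adjusted p = 0.808), so levels in old cells from 0.749 to 1.18 times the young ones stay within the error. Without young 2 the fitted value turned to 0.15, and with each cell thinned to 1 depth to 0.03. Whether the 3 windows differ from one another in their change was not tested.

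**Figure D1:**
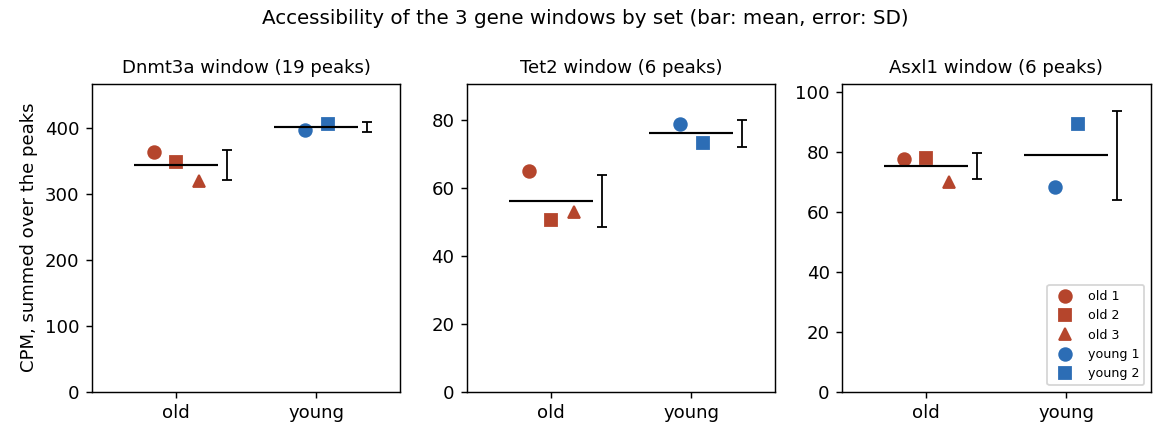
Accessibility in CPM summed over the peaks of each window (y axis, from 0) for the 3 old sets in red and the 2 young sets in blue, with the mean as a line and the SD as a bar beside it. The old sets sit at 319.3 to 363.4 CPM around Dnmt3a and 50.6 to 65.0 CPM around Tet2, below both young sets, while around Asxl1 they lie between the young sets.

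Peaks were dense around Dnmt3a, with 13.6 per 100 kb and 9.32% of the window covered, against 6.67 per 100 kb and 4.56% around Asxl1 and 4.29 per 100 kb and 2.35% around Tet2. The median 100-kb bin that held any peak had 5. Peak levels are given in CPM of the composition-adjusted total of all tested peaks, and positions as the table names them in mm9. The highest peak of the Dnmt3a window, chr12:3855615-3856550, ranked 422 of all 115295 peaks by mean CPM. It had 82.9, 86.5 and 90.3 CPM in old 1, old 2 and old 3, against 106.6 and 90.6 CPM in young 1 and young 2. The old sets lay below both young sets, but young 2 was only just above old 3, and the log2 fold change was -0.18 ± 0.20 (SE, edgeR adjusted p = 0.727).

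The second highest Dnmt3a peak, chr12:3833744-3835314, had 63.2, 72.9 and 75.0 CPM in the old sets, against 84.7 and 91.5 CPM in the young sets. Its log2 fold change was -0.34 (SE 0.20, edgeR adjusted p = 0.425), with no overlap between the ages. This value leaned on 1 cell. A cell of young 2 with 27975 counts in all held 46 counts at this peak, 22.5% of the counts of its set there, where the next highest cell of any set held 15. Without that cell, a setting added once the data had been seen, the log2 fold change was -0.14 (edgeR adjusted p = 0.816). Counting each cell once per peak gave 0.09, and thinned cells gave 0.41, both with old above young. The share of cells with a count at this peak, at 1 depth, was 11.7%, 13.6% and 12.9% in the old sets, against 9.04% and 10.3% in the young sets.

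The widest member, chr12:3806232-3808683 at 2451 bp, was the third highest around Dnmt3a and above 98.8% of all peaks. It had 70.55, 64.1 and 51.1 CPM in old 1, old 2 and old 3, against 58.8 and 75.4 CPM in young 1 and young 2. The ages overlapped, with old 3 lowest and young 2 highest, and the log2 fold change was -0.12 (SE 0.21, edgeR adjusted p = 0.843). Its sign turned with thinned cells (0.09), without old 3 (0.02) and without young 2 (0.12).

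The member with the smallest p was chr12:3868475-3868943, further along the same window and 468 bp wide. It had 14.95, 19.3 and 13.3 CPM in old 1, old 2 and old 3, against 23.9 and 23.8 CPM in young 1 and young 2. The young sets were nearly equal and lay above all old sets. The log2 fold change was -0.59 with a standard error of 0.29 and a 95% interval of -1.17 to -0.01, but it did not pass adjustment (edgeR adjusted p = 0.312). In every alternative that tested this peak the fitted value stayed below 0 in old, but the fit with thinned cells did not test it. The share of cells with a count there, at 1 depth, was 2.70%, 3.81% and 3.24% in the old sets. In young 1 and young 2 it was 2.82% and 4.11%, so these shares overlapped between the ages.

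The peak chr12:3890892-3892186 had a fitted value of similar size, -0.55 (SE 0.29, edgeR adjusted p = 0.370). It had 18.9, 11.5 and 14.6 CPM in the old sets, against 20.9 and 23.8 CPM in the young sets, so the ages did not overlap. Its direct neighbour chr12:3892429-3893249 had 28.6, 23.4 and 21.9 CPM in the old sets, against 29.9 and 28.7 CPM in the young sets, with old 1 just below young 2. Its log2 fold change of -0.21 had a standard error of 0.26. The same order held at chr12:3870789-3871920, with 50.4, 53.1 and 39.2 CPM in the old sets against 57.8 and 57.9 CPM in the young sets, with a log2 fold change of -0.27 (standard error 0.21).

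The other 5 tested Dnmt3a peaks overlapped between the ages. The peak at the start of the window, chr12:3791342-3792203, averaged 23.2 ± 2.28 CPM in old (SD, n = 3) and 23.0 ± 2.98 CPM in young sets (SD, n = 2), with a log2 fold change of -0.003. Near-equal levels were also found at chr12:3839371-3839881, with 11.9 ± 2.07 CPM in old (SD, n = 3) and 11.8 ± 1.14 CPM in young sets (SD, n = 2). Fitted values above 0 in old were found at chr12:3852634-3852857, at 0.43 with a standard error of 0.46, and at chr12:3925990-3926514, at 0.26 with a standard error of 0.45. The peak chr12:3917862-3918244 had -0.45 with a standard error of 0.53, with the old sets at 3.32 to 5.51 CPM, young 1 above them at 10.96 CPM and young 2 among them at 3.59 CPM.

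The Tet2 window was dominated by 1 peak. The peak chr3:133206797-133208338, 1541 bp wide and above 98.2% of all peaks in level, held 80.7%, 81.7% and 83.1% of the window's counts in old 1, old 2 and old 3, against 71.9% and 83.5% in the young sets. It had 58.0, 46.4 and 49.1 CPM in the old sets, against 63.8 and 68.2 CPM in the young sets. All old sets lay below the young sets, and the log2 fold change was -0.36 with a standard error of 0.21 and a 95% interval of -0.77 to 0.06 (edgeR adjusted p = 0.414). The window's own fitted value is thus mainly that of this peak.

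The other tested Tet2 peak, chr3:133126172-133126574, rested on 36 old and 27 young counts. It had 6.56, 2.08 and 4.65 CPM in old 1, old 2 and old 3, against 12.95 and 6.28 CPM in young 1 and young 2. The ages overlapped, since old 1 was above young 2. Its log2 fold change of -0.86 was the furthest from 0 of all tested members, with a standard error of 0.47 and an interval of -1.80 to 0.07 (edgeR adjusted p = 0.375). Leaving out 1 set moved it between -1.40, without young 2, and -0.39, without young 1. Of the 4 untested Tet2 peaks, chr3:133193696-133194048 had the highest level, with 1.84, 2.60 and 1.33 CPM in the old sets, against 3.98 and 4.04 CPM in the young sets.

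Around Asxl1 the highest peak was chr2:153170991-153172372, with 35.4, 35.95 and 29.2 CPM in old 1, old 2 and old 3, against 25.9 and 43.97 CPM in young 1 and young 2. The 2 young sets lay on either side of all old sets. The log2 fold change was -0.11 (SE 0.24, edgeR adjusted p = 0.877), and it turned to 0.41 without young 2 and to 0.09 when each cell was counted once. The neighbouring chr2:153163920-153164807 had 14.2, 14.6 and 11.95 CPM in the old sets, against 11.95 and 20.2 CPM in the young sets, again with young 2 highest. Its log2 fold change was -0.31 with a standard error of 0.31, and 0.23 without young 2.

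The peak chr2:153237108-153237759, near the other end of the Asxl1 window, was the only tested member with every old set above every young set. It had 22.3, 26.6 and 22.6 CPM in the old sets, against 21.9 and 21.1 CPM in the young sets, and the gap between old 1 and young 1 was smaller than the spread among old sets. The log2 fold change was 0.15 with a standard error of 0.27 and a 95% interval of -0.40 to 0.70 (edgeR adjusted p = 0.858). The last tested peak, chr2:153176339-153176938, went the other way, with 7.87, 6.77 and 8.63 CPM in the old sets against 11.95 and 9.87 CPM in the young sets. Its log2 fold change was -0.46 (SE 0.38, edgeR adjusted p = 0.617).

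The 13 members without a test held 3 to 29 counts each over all cells, and the 18 tested ones 53 to 927. Standard errors of the tested members ran from 0.20 to 0.53 on the log2 scale, with a median of 0.28, against a median of 0.37 over all tested peaks. The interval of the highest member, chr12:3855615-3856550, ran from -0.58 to 0.22.

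**Figure D2:**
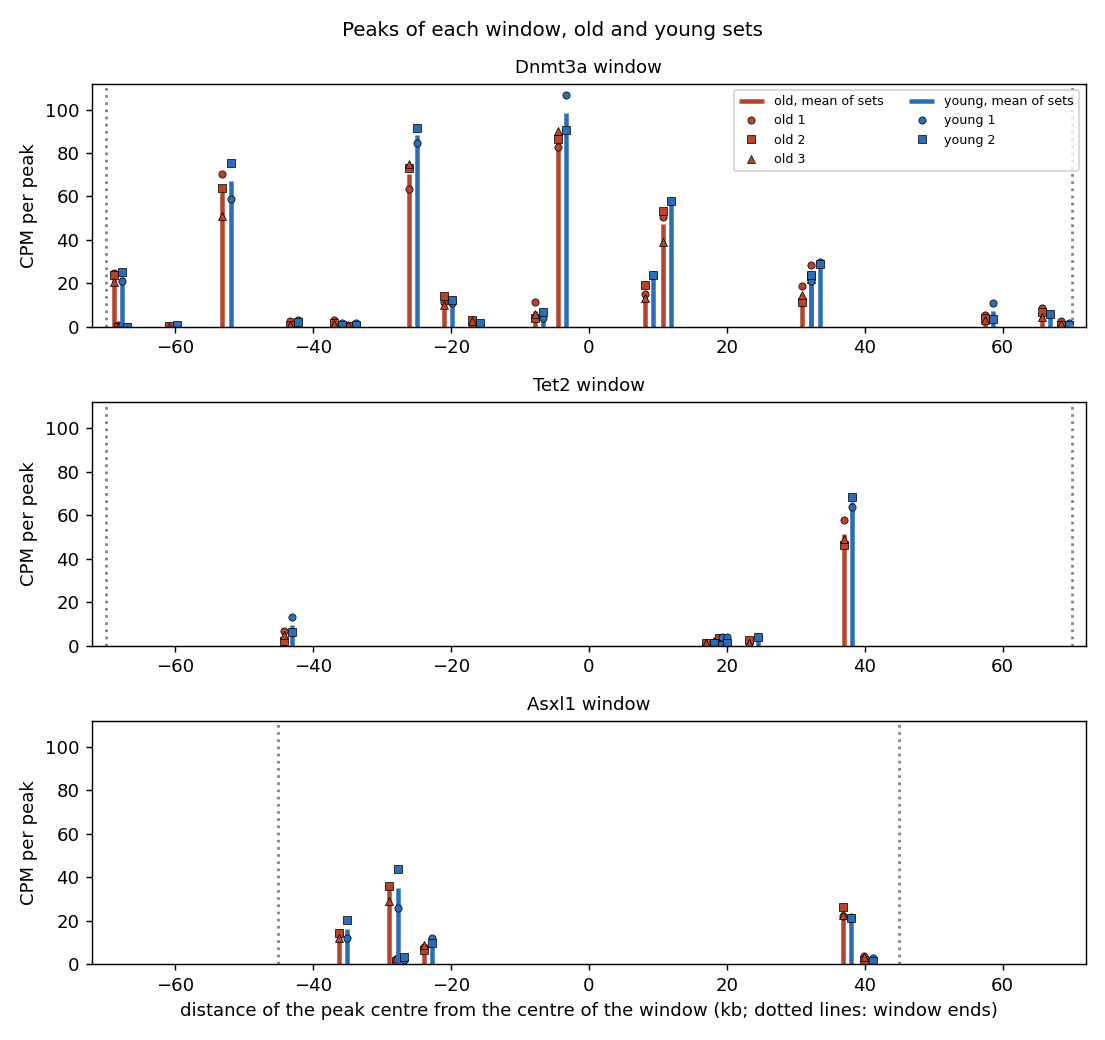
Level of all 31 peaks in CPM (y axis) by the distance of the peak from the centre of its window in kb (x axis), with old sets in red left of young sets in blue, bars for the mean and points for the sets. The Tet2 panel holds a single high peak, at 46.4 to 58.0 CPM in the old sets. The Dnmt3a panel holds several high peaks between -52.5 and 11.4 kb, with lower peaks towards both ends.

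**Figure D3:**
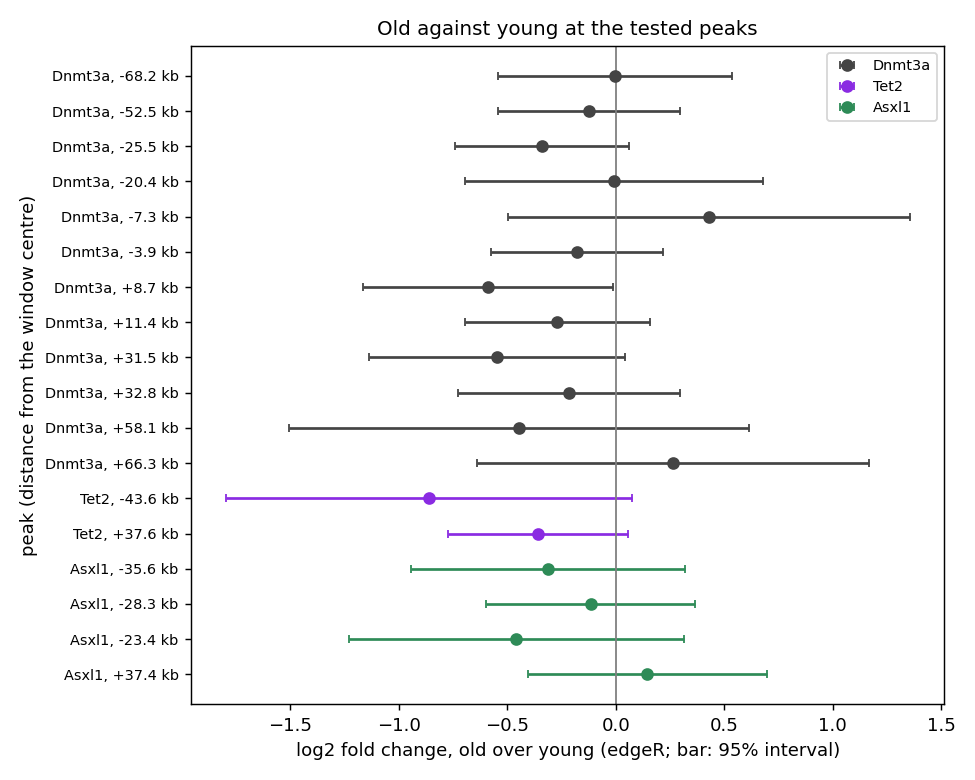
Log2 fold change of old over young (x axis) for the 18 tested peaks (y axis, by window and by distance from the window's centre in kb), with the 95% interval as a bar. Points lie left of 0 for 15 of 18, and the interval leaves out 0 only at the Dnmt3a peak with -0.59.

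Per cell, accessibility was compared as the share of cells with at least 1 count in a window, after each cell was thinned to 1906 counts so that depth was equal. The shares of the ages overlapped at Dnmt3a and Asxl1 and did not overlap at Tet2. At Dnmt3a the old sets had 47.7%, 48.2% and 45.6%, against 45.8% and 50.0% in the young sets, a difference of -0.69 percentage points (exact two-sided permutation p = 0.9). At Tet2 it was 9.91%, 10.1% and 9.12% in the old sets, against 15.8% and 12.3% in the young sets. The Tet2 shares did not overlap between the ages, with means of 9.70% ± 0.514 in old (SD, n = 3) and 14.1% ± 2.47 in young sets (SD, n = 2). The difference of -4.37 points reached p = 0.1 by exact two-sided permutation, the lowest value possible with 3 sets against 2, so none of the 3 windows compared in this way could pass 0.05. The counting error of each share is wide, from 6.32% to 14.6% in old 1 and from 7.47% to 18.8% in young 2 (Clopper-Pearson 95% intervals, which cover counting error only), so the intervals of the ages overlap. At Asxl1 the share was 15.8%, 12.3% and 13.8% in the old sets, against 13.0% in each young set, a difference of 0.95 points (exact permutation p = 0.6).

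Thinning left out 84, 13 and 34 cells of the old sets and 4 and 5 of the young sets. Without thinning the shares were 72.9%, 75.3% and 67.9% in the old sets against 81.2% and 88.1% in the young sets at Dnmt3a, and 40.5%, 20.5% and 19.3% in the old sets against 33.7% and 51.0% in the young sets at Tet2. At Asxl1 they were 46.7%, 29.2% and 23.3% in the old sets against 29.8% and 55.0% in the young sets, which turned the difference to -9.33 points. The median count per cell was 9623, 4434 and 3604.5 in the old sets and 6133 and 11807 in the young sets, in the same order as the unthinned shares at Tet2 and Asxl1 within each age. At 953 counts per cell the difference was -1.34 points at Tet2 (exact permutation p = 0.5), where the ages then overlapped, and 1.33 points at Asxl1 (exact permutation p = 0.4). The Dnmt3a shares then lay just apart, with 30.26%, 30.26% and 29.1% in the old sets against 30.4% and 31.8% in the young sets. The difference was -1.20 points (exact permutation p = 0.1, the lowest possible). This order is narrow, with 115 of 380 cells in old 2 against 55 of 181 in young 1. Their Clopper-Pearson 95% intervals, 25.7% to 35.2% and 23.8% to 37.6%, overlap, and the thinning was a random draw made once.

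**Figure D4:**
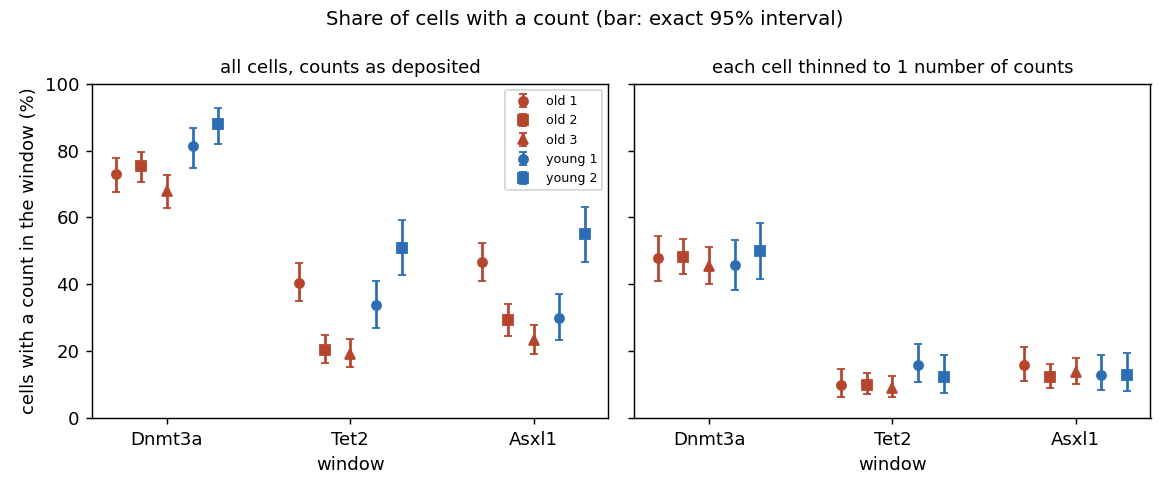
Share of cells with at least 1 count in each window in percent (y axis), by set, with the exact 95% interval as a bar, for all cells as deposited (left) and for cells thinned to 1 depth (right). Old sets are red and stand left of the young sets in blue, and the wide spread between sets on the left, such as 19.3% to 40.5% of old cells at Tet2, narrows to 9.12% to 10.1% on the right.

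At 1 depth the share of cells with counts in all 3 windows was at most 1.80% in any set. Counts in 2 windows were found in 10.4%, 9.81% and 10.0% of cells of the old sets, against 12.4% and 15.1% of cells of the young sets, and 39.7% to 42.6% of cells of every set had a count in none. Bins were compared with the windows by pattern over the 5 sets, not by level, as each was first centred on its own mean. By the largest log2 difference, the nearest bins were chr12:86500001-86600000 (0.017) and chr5:109000001-109100000 (0.025) for Dnmt3a. For Tet2 they were chr19:29500001-29600000 (0.032) and chrX:104200001-104300000 (0.045), and for Asxl1 chr11:82800001-82900000 (0.023) and chr17:31200001-31300000 (0.027). These are the nearest of 16652 bins and windows over only 5 sets.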

How the data were processed

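Cells sorted from bone marrow went through plate-based single-cell ATAC-seq, per the labels. The authors deposited a table of counts per peak and cell, which are whole numbers and not normalized, judging by the values. Per the submitters' processing notes, Trim Galore, FastQC, Bowtie2, SAMtools and Picard were used, with the mouse build mm9. Not given in the sources used here are versions, the peak caller and any pooling of cells for it, whether reads or fragments were counted, the filters on cells, and whether starts count from 0 or 1. Duplicates kept in the counts would raise single entries, but whether any were kept was not tested. Entries ran up to 209, with 77.7% of those above 0 being 1. The number of columns without a sample was 0.

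Counts were summed per set and tested on the whole peak table with edgeR 4.0.16 in R 4.3.3 (TMM scaling, filterByExpr at a minimum count of 10, robust quasi-likelihood fit, Benjamini-Hochberg threshold 0.05). CPM are counts scaled to 1000000 of the TMM-adjusted total of the tested features. For the windows, counts were summed over their peaks and fitted in 1 table with 100-kb bins of the rest of the genome. The standard error is the size of the log2 fold change divided by the root of F, and 95% intervals use the t quantile. DESeq2 1.42.0 was an alternative. Shares of cells were compared after thinning each cell to 1906 counts, the 10th percentile over all cells, by exact permutation of the set labels (scipy 1.17.1, Python 3.11.15). The counts kept in each cell were drawn at random, once per depth. The fits were tested on simulated data.

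Peaks were named by a rule, in each window the 3 with the highest mean CPM and the 3 tested ones with the smallest p, which gave 12, plus any that passed, of which there were 0. The other tested peaks are given because they complete the windows. The members, lists and tests were chosen with earlier results of these data known. A list of other genes of the pathway and of cell type markers was not used, because the gene table given is of GRCm38.p6. Both ages use the set numbers 1 and 2, but the deviations of sets from their age's mean had correlations of -0.0758 (old 1 and young 1) and -0.000706 (old 2 and young 2), so equal numbers were not treated as pairs. Alternatives concern scaling, count filter, binarized counts, thinning, cell filters, test, threshold, bin and window size, a replicate block and each set left out.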

Additional observations from a re-analysis of the deposited data

How the results depend on the processing

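No alternative called a member peak or a window. Some tested fewer members than the 18 of the main fit, namely thinned cells (9), a minimum count of 30 (11), binarized counts (17) and the fit without old 1 (16). The fitted value of the Dnmt3a window ran from -0.26 to -0.10 and stayed below 0 in old in all 18 alternatives, nearest to 0 with each cell counted once per peak, and that of the Tet2 window from -0.63 to -0.31 in all 18. The smallest edgeR adjusted p of any window was 0.0627, for Tet2 without old 1, within a range up to 0.463. The Asxl1 window kept its direction in 16 of 18, turning to 0.030 with thinned cells and to 0.15 without young 2. Leaving out each set in turn gave -0.26 to -0.18 for Dnmt3a, -0.54 to -0.33 for Tet2 and -0.24 to 0.15 for Asxl1. For the difference in the share of cells it gave -2.81 to 1.43 points for Dnmt3a, above 0 without old 3 (0.107) and without young 2 (1.43), -6.12 to -2.63 for Tet2 and 0.0385 to 1.79 for Asxl1. Without thinning the Asxl1 difference was -9.33 points. Named peaks kept their direction in 147 of 157 values. The exceptions were chr12:3806232-3808683 (0.087 thinned, 0.0030 with the replicate block, 0.017 without old 3, 0.12 without young 2), chr12:3833744-3835314 (0.093 binarized, 0.41 thinned), chr2:153163920-153164807 (0.23 without young 2, lowest -0.55 without young 1) and chr2:153170991-153172372 (0.088 binarized, 0.039 with the replicate block, 0.41 without young 2, lowest -0.37 without young 1). The cause was not tested. With the set number as a replicate block the windows had -0.17 (Dnmt3a), -0.41 (Tet2) and -0.02 (Asxl1), and 1102 peaks of the whole table were called. No young set has the number 3, so in that fit old 3 does not inform the difference between the ages. Against 1844 peaks called, DESeq2 called 426, a minimum count of 30 called 769, thinned cells 185, a threshold of 0.01 left 840, and leaving out 1 set gave 776 to 1641, with 1075 without old 2, 776 without old 3 and 989 without young 2. With a young set left out, the lone one is assumed to vary like the old sets. The numbers of peaks called are not shares, because the fits also tested different numbers of peaks. The main fit tested 58167 peaks, DESeq2 50441, the fit with a minimum count of 30 tested 22788 and that with thinned cells 13892. The lower number called at a minimum count of 30 thus came with a smaller table. The exact permutation over 5 sets cannot go below 0.1, and the 13 members outside the main test hold at most 29 counts each. Without a count filter all 31 members were tested, 0 were called and 1 had an unadjusted p under 0.05 (smallest edgeR adjusted p = 0.393).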
